A study of Mus musculus with 5 samples.

Results

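Inpp5d, Sh2d2a, Mast3, Pik3cd and Septin1 are 5 mouse genes of leukocyte signalling whose lung RNA was lower on arrays of mice given interleukin-13 (IL-13) than on arrays of mice given saline. They were chosen by that difference in these same arrays, so every IL-13 against saline value of theirs is a description and carries no test. A probe set is a block of short oligonucleotides that together measure 1 transcript. Every probe set was taken whose platform annotation gives exactly 1 gene symbol and that symbol is one of the 5. That gave 7 probe sets of the 12422 that are not controls, and 5 genes of the 8251 named in that way. Inpp5d and Pik3cd have 2 probe sets each, and the other 3 genes have 1. For Inpp5d and Pik3cd the lower RNA rests on 1 of the 2 probe sets, and by the other the groups overlapped.

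RNA of murine lung from A/J mice was hybridised to 5 Affymetrix mouse expression arrays. Both groups were dosed into the trachea, 2 arrays with saline solution and 3 with IL-13, a cytokine of T helper 2 responses that makes airway epithelium form goblet cells. In their titles the saline arrays bear the number 6 or 48, and the IL-13 arrays 6, 18 or 48. The labels give these numbers no unit, so each array is called by its treatment and title number. The IL-13 6 title ends in s3 and the other titles in s2, which the labels do not explain. Each combination of treatment and number holds 1 array. The labels give neither the age of the mice nor the number of animals behind an array. Any p-value therefore measures only the spread between these arrays, which may be technical.

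Class I phosphoinositide 3-kinases phosphorylate the membrane lipid PIP2 to PIP3, which recruits kinases such as Akt and, in lymphocytes, Tec kinases to the membrane. Pik3cd encodes p110 delta, the catalytic subunit that predominates in leukocytes. Inpp5d encodes SHIP-1, a phosphatase of blood cells that removes the 5-phosphate of PIP3 and so works against the kinase. Sh2d2a encodes the T cell-specific adapter TSAd, an SH2 protein that binds the Src family kinase Lck. Mast3 is a microtubule-associated serine/threonine kinase of the AGC kinase class. Septin1 belongs to the septins, GTP-binding proteins that assemble into filaments at the cell cortex.

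The promoters are shown because genes with a shared pattern can be searched for shared letters. RefSeq windows from 250 bases before to 50 bases after the start site, on build GRCm38.p6, matched 3 of the 5 genes. Sh2d2a and Septin1 were not matched. Inpp5d and Mast3 have 1 start site each in that table and Pik3cd has 3, of which the first is printed. The Inpp5d window is chr1:87620062-87620361 on the plus strand, that of Mast3 is chr8:70792384-70792683 on the minus strand, and that of Pik3cd is chr4:149698659-149698958 on the minus strand. Each is written 5′ to 3′ on the gene's strand, with matches on either strand to AGGAAG, the core bound by ETS factors, or to GGGCGG, the GC box, in capitals.
Inpp5d: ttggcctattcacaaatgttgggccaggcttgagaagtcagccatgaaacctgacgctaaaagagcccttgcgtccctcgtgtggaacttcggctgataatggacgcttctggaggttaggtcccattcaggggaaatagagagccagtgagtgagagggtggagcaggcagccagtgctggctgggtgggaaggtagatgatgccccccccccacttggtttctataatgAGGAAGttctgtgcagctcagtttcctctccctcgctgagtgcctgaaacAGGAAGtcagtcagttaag
Mast3: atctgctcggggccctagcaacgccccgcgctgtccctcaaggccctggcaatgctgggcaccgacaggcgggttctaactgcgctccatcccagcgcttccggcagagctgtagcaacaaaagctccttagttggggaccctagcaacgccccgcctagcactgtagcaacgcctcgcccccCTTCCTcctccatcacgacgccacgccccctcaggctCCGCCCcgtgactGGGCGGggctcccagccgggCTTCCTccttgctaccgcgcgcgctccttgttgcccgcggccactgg
Pik3cd: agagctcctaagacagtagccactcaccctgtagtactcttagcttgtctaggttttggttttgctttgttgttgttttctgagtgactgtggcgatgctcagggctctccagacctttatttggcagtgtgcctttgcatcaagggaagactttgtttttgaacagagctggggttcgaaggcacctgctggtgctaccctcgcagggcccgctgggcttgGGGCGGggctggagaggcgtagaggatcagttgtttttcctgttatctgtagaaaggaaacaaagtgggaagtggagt
The ETS core was present 2 times in the Inpp5d window, starting at positions -19 and 32 from the start site, and 2 times in the Mast3 window, at -67 and 4. It was not in any of the 3 Pik3cd windows. Of the 32851 promoter windows of this length in the table, 35.35% hold the ETS core and 8.621% hold it at least 2 times. The GC box was present 2 times in the Mast3 window, once in the printed Pik3cd window and 3 times in the second Pik3cd window, and 35.66% of all windows hold it. TGTGGT, the core bound by RUNX factors, was in none of the 5 windows and is in 16.76% of all windows. The motifs searched do not overlap one another, and a match is a run of letters and not a measured site.

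The values are intensities on a linear scale, and the 2% trimmed mean of each array lay between 800.39 and 800.47 as deposited. Values under 55.3, the 20th percentile of all arrays together, were treated as at a floor. A probe set was tested where it was above 210, the 40th percentile, on at least 2 arrays, which held for 7811 probe sets of 5983 genes and for all 7 probe sets of the 5 genes. Of the 7, 5 passed through the saline arrays alone, so they had to be higher there. The saline 6 array stood apart: its summed intensity of 9 salivary gland markers was 114699, against 924 to 1243 on the other 4 arrays, and its correlation with each of them was 0.913 to 0.923. Each member is therefore given with and without it. The IL-13 18 array also stood apart, by markers of alveolar epithelium. Sftpc, surfactant protein C, read 17179 there, 2615 on saline 6, and 194, 257 and 300.5 on saline 48, IL-13 6 and IL-13 48. Scgb1a1, the secretoglobin of airway club cells, was high on all 5 arrays, at 22024 to 31024.

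Inpp5d was low on all 3 IL-13 arrays by one of its probe sets and not by the other. Probe set 102884_at read 342 on saline 6 and 256 on saline 48, against 35.4, 55.3 and 61.9 on IL-13 6, 18 and 48. Both saline arrays lay above all 3 IL-13 arrays, and the IL-13 6 and IL-13 18 values were below the floor. The lowest saline value was 4.13-fold the highest IL-13 value, while the saline arrays differed 1.34-fold from each other. On the log2 scale the mean difference was -2.37 (SE 0.19, n = 3 IL-13 and 2 saline arrays), and -2.16 without the saline 6 array. Since 2 of the 3 IL-13 values are at the floor, this difference and its SE are floor-limited values. The arrays that share a title number were also set side by side, although the labels tie that number to no animal, day or batch. At title number 6 the gene was at least 6.19-fold lower after IL-13, and at title number 48 it was 4.13-fold lower.

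The second Inpp5d probe set, 161678_at, read 420 on saline 6 and 166 on saline 48, against 291, 263 and 116 on IL-13 6, 18 and 48. Here the groups overlapped, since the saline 48 value lay below those of IL-13 6 and IL-13 18. Its difference was -0.35 (SE 0.53) and 0.32 without saline 6. Between arrays of the same title number it was still lower after IL-13, 1.44-fold at number 6 and 1.43-fold at number 48, but the saline arrays themselves differed 2.53-fold. The root mean square difference between the centred log2 profiles of the 2 Inpp5d probe sets was 1.15. In the same measure the low Inpp5d probe set lay 0.104 from Mast3 and 0.156 from Sh2d2a.

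Pik3cd, the kinase whose product SHIP-1 dephosphorylates, also had probe sets that disagreed. Probe set 103866_at read 631 on saline 6 and 430 on saline 48, against 82.5, 197 and 68.6 on IL-13 6, 18 and 48. All 3 IL-13 arrays were below both saline arrays, with IL-13 18 the highest of the 3. The mean difference was -2.33 (SE 0.46, n = 3 and 2), and -2.05 without saline 6. It was the most uneven of the 5 lower probe sets among the IL-13 arrays, which spanned 2.87-fold. Without the IL-13 18 array the difference was -2.79. Arrays of the same number gave 7.65-fold lower at number 6 and 6.27-fold lower at number 48, while IL-13 18 was lower than the mean of the saline arrays by a log2 difference of -1.40.

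Probe set 92390_at of Pik3cd read 223 on saline 6 and 136 on saline 48, against 265, 164 and 187 on IL-13 6, 18 and 48. These values lie near the level of 210 used for testing, and the groups overlapped. Its difference was 0.21 (SE 0.30) and 0.57 without saline 6, with higher values after IL-13 at both numbers, by 0.25 and 0.46 on the log2 scale. The 2 Pik3cd profiles lay 1.41 apart by root mean square difference, further than any 2 of the 5 lower probe sets, whose distances ran from 0.104 to 0.698. For these 2 phosphoinositide genes, then, the separation of the IL-13 from the saline arrays rests on 1 of 2 probe sets each. Which probe set of each pair follows the main transcript was not tested.

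Sh2d2a, the T cell adapter, was measured by 100292_at alone. Its intensity was 819 on saline 6 and 600.5 on saline 48, and 135, 160 and 128 on IL-13 6, 18 and 48. The groups were separate, with every IL-13 value above the floor. The lowest saline value was 3.76-fold the highest IL-13 value, and the IL-13 arrays spanned 1.25-fold. The mean difference was -2.32 (SE 0.21, n = 3 and 2), and -2.10 without saline 6. The gene was 6.07-fold lower at number 6 and 4.71-fold lower at number 48.

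Mast3, the serine/threonine kinase, had the most even IL-13 values of the 5 lower probe sets. Its probe set 104032_at read 445 on saline 6 and 347 on saline 48, against 88.5, 79.6 and 83.8 on IL-13 6, 18 and 48. No value was under the floor, and the IL-13 arrays spanned 1.11-fold. The difference was -2.23 (SE 0.18, n = 3 and 2), and -2.05 without saline 6. By title number it was 5.03-fold lower at number 6 and 4.14-fold lower at number 48.

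Septin1, the cytoskeletal gene of the 5, was measured by 1 probe set. This probe set, 102962_at, read 505 on saline 6 and 544 on saline 48, against 52.9, 98.2 and 135 on IL-13 6, 18 and 48. The saline arrays differed 1.08-fold, the IL-13 arrays at least 2.43-fold, and only the IL-13 6 value was under the floor. The difference was -2.54 (SE 0.37, n = 3 and 2), and -2.59 without saline 6. At number 6 it was at least 9.14-fold lower and at number 48 it was 4.04-fold lower. Septin1 was the one of the 5 lower probe sets that was not higher on saline 6 than on saline 48.

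**Figure D1:**
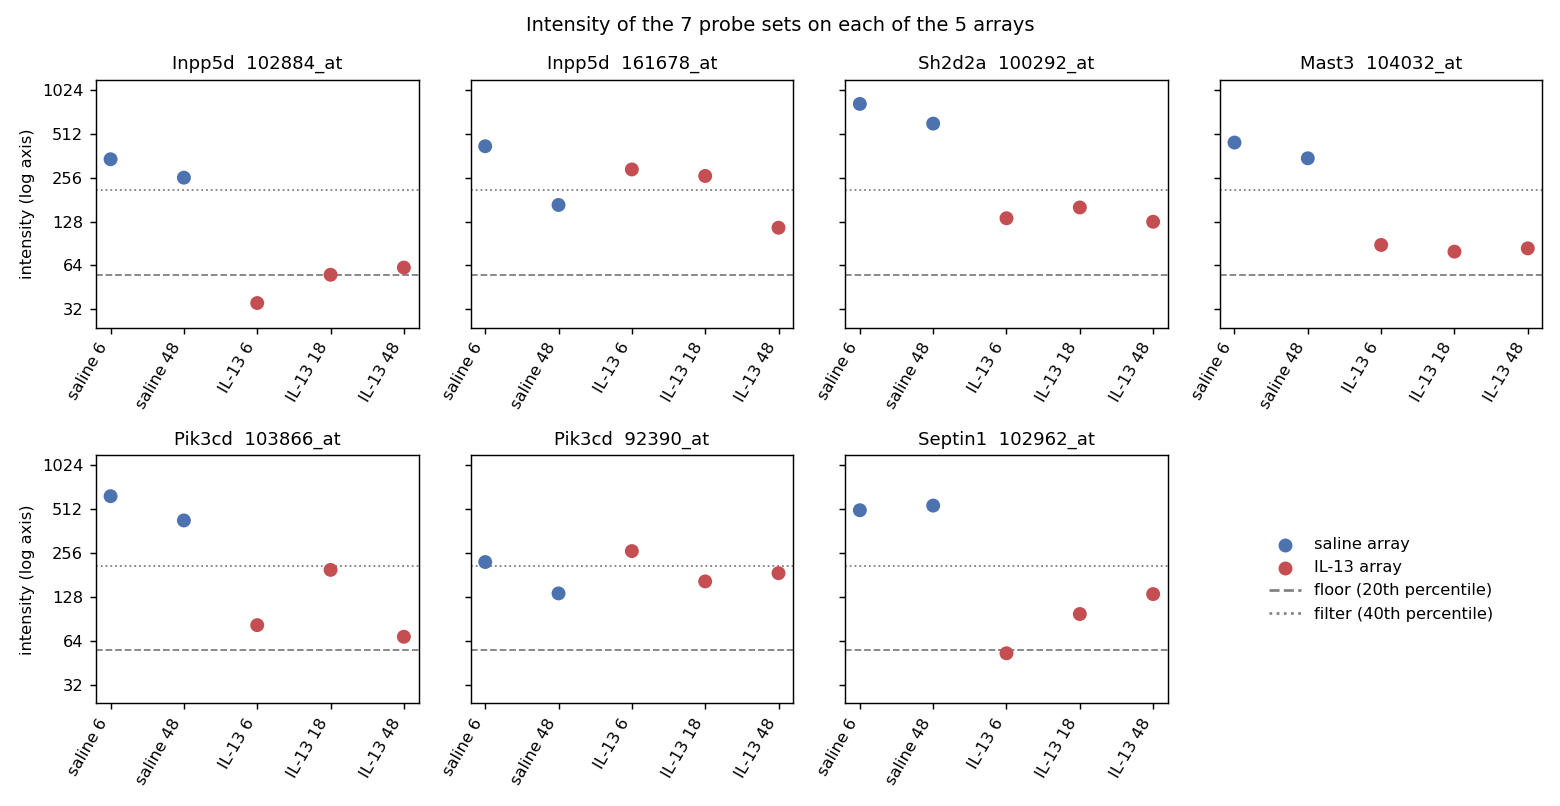
Each panel plots the linear intensity of 1 probe set on the 5 arrays, as a point per array on a log axis, with saline and IL-13 in different colours, and with lines at the floor and at the level for testing. In the panels of Inpp5d 102884_at, Sh2d2a, Mast3, Pik3cd 103866_at and Septin1 all 3 IL-13 points lie below both saline points, and in those of Inpp5d 161678_at and Pik3cd 92390_at they overlap.

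Over the 7 probe sets the median log2 difference was -2.32, against 0.03 over all tested genes. In 5 of the 7, all 3 IL-13 arrays lay below both saline arrays, which was the case for 11% of all tested probe sets. The same 5 were at least 2-fold lower at both shared title numbers, as were 0.909% of tested probe sets. In the limma fit over all 7811 probe sets with Benjamini-Hochberg adjustment, 3 of the 7 passed an adjusted p of 0.05 as lower, Inpp5d 102884_at, Sh2d2a and Mast3, each at an adjusted p of 0.0398. Lower calls made up 0.0384% of the tested probe sets and these 3 were all of them, while 1 probe set, 0.0128%, was called higher. These counts restate how the genes were chosen. At an unadjusted p under 0.05 the limma fit had 310 lower and 413 higher probe sets.

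Pik3cd 103866_at (limma adjusted p = 0.274) and Septin1 (0.183) did not pass, although their differences were as large as those that did. Their SE values were 0.46 and 0.37, against 0.18 to 0.21 for the 3 that passed. The SE of Inpp5d 102884_at, 0.19, is floor-limited, because its IL-13 6 and IL-13 18 values were both raised to the floor. With the floor at the 10th percentile none of the 3 passed, and the lowest limma adjusted p of all probe sets was 0.0656. Just inside the threshold lay Mast3, Sh2d2a and 162484_r_at, a probe set without a single gene name that was higher by 2.09. Just outside lay 92802_s_at, also without a single name (1.88, adjusted p = 0.155), Cytip 104256_at (-1.40, 0.173) and Tbxa2r (-1.31, 0.183).

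The 3 calls did not hold under every processing. They were kept with quantile normalization, with the values as deposited and without the saline 48 array. Without saline 6, or without any one IL-13 array, none of the 3 passed. Neither did any once the title number was fitted as a block, which uses the 4 arrays numbered 6 or 48, and there the lowest limma adjusted p of all probe sets was 0.110. In that fit the differences were -2.34 for Inpp5d 102884_at, -2.42 for Sh2d2a, -2.19 for Mast3, -2.79 for Pik3cd 103866_at and -2.60 for Septin1, which are also the differences without the IL-13 18 array. A floor at the 40th percentile, which lifts most of the IL-13 values, left -0.49 for Inpp5d 102884_at, -0.90 for Mast3, -1.31 for Pik3cd 103866_at, -1.32 for Septin1 and -1.74 for Sh2d2a.

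**Figure D2:**
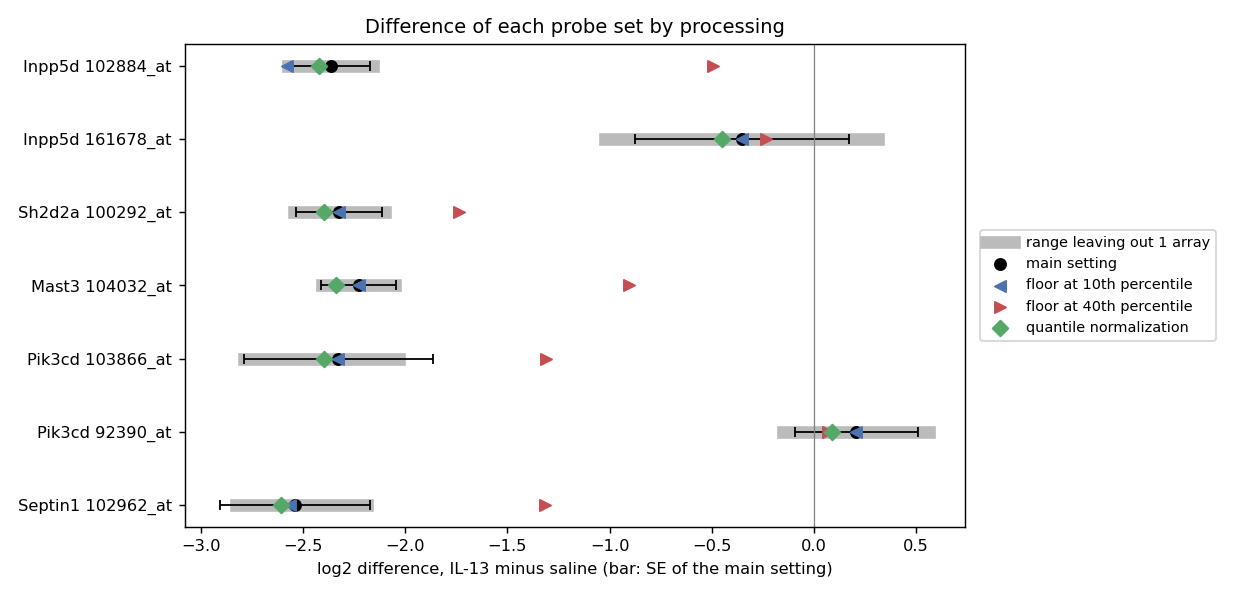
The log2 difference of IL-13 minus saline is drawn for each probe set as processed here (with its SE), with floors at the 10th and 40th percentile and with quantile normalization, and a grey bar gives the range when 1 array is left out. The 5 lower probe sets lie below 0 throughout, nearest to it with the floor at the 40th percentile. With their separate groups, a changed floor or a left-out array could not reverse that sign. The grey bars of Inpp5d 161678_at and Pik3cd 92390_at span 0.

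Differences among arrays of the same treatment are given next, as a description, since the spread within a treatment also enters the limma calls on which the genes stand out. From saline 6 to saline 48 the log2 difference was -0.36 for Mast3, -0.42 for Inpp5d 102884_at, -0.45 for Sh2d2a and -0.55 for Pik3cd 103866_at, and 0.11 for Septin1. So 4 of the 5 lower probe sets were higher on saline 6, while over all tested genes the median of this difference was 0.06. Both other probe sets were also higher on saline 6, Inpp5d 161678_at by a difference of -1.34 and Pik3cd 92390_at by -0.71. Among the IL-13 arrays, Sh2d2a and Pik3cd 103866_at were highest on IL-13 18, Septin1 and Inpp5d 102884_at on IL-13 48, and Mast3 on IL-13 6. The IL-13 18 array differed from the mean of IL-13 6 and 48 by 1.39 for Pik3cd 103866_at, 0.29 for Sh2d2a, 0.19 for Septin1, whose IL-13 6 value was set to the floor, and -0.11 for Mast3. For Inpp5d 102884_at no such value is given, because IL-13 6 and IL-13 18 were both set to the floor. With 1 array for each number none of these differences has a test.

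Because several of the 5 genes are used mainly in blood cells, the levels of leukocyte genes are given beside them. In lung RNA, fewer cells of a type, less RNA per cell and a different share of other tissue in the sample cannot be told apart. The arrays did differ in markers of other tissue, such as the salivary gland markers on saline 6. How much of each tissue a sample held was not tested. Of 15 T cell marker genes on the array, all 15 were tested and all 15 had a lower mean after IL-13, with 13 below both saline arrays on all 3 IL-13 arrays. Over all tested genes 45.7% had a lower mean and 11.3% were below both saline arrays. The gene lists were chosen with earlier results of these data known, so their counts are a description. The median T cell marker difference was -1.30, and the 4 largest were Cd3e at -2.47, Cd8b1 at -2.29, Cd3g at -2.02 and Cd3d at -1.95. Cd3e, Cd3g and Cd3d are chains of the T cell receptor complex, and Cd8b1 is a chain of the CD8 co-receptor.

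Summed over the list, T cell marker intensity was 18171 on saline 6 and 22546 on saline 48, against 7079, 12304 and 6875 on IL-13 6, 18 and 48. No T cell marker was under the floor on all arrays. None passed the limma test after adjustment, and 12 of the 15 were lower at an unadjusted p under 0.05. Within a treatment, the T cell markers and the 5 genes did not have the same order of arrays. The markers were higher on saline 48 in 11 of 15, with a median of 0.36 over saline 6, where 4 of the 5 lower probe sets went the other way. They were highest on IL-13 18 in 13 of 15, with a median of 0.87 over the mean of the other IL-13 arrays, where of the 5 genes Pik3cd 103866_at and Sh2d2a were highest. The part of T cell RNA in the lower values of the 5 genes was not tested.

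Genes common to leukocytes, 30 of 30 tested, had a lower mean in 27 and a higher mean in 3, with 18 below and 1 above both saline arrays and a median of -0.76. Without saline 6 the median was -0.33. The largest differences were those of Cd53, a tetraspanin (-1.42), Cytip, a cytohesin-binding protein (104257_g_at, -1.21), Selplg, the P-selectin ligand (-1.16), and Itgb2, the beta 2 integrin (-1.11). Their summed intensity was 48659 on saline 6 and 34612 on saline 48, against 24105, 25756 and 21906 on IL-13 6, 18 and 48. These genes were higher on saline 6 than on saline 48, with a median of -0.40 for saline 48 minus saline 6, the direction of 4 of the 5 lower probe sets. Immature thymocyte markers had a lower mean in 5 of 6 tested with a median of -1.03, led by Satb1 (-2.03), Ccr9 (-1.40), Dntt (-1.17 by 103961_s_at and -0.58 by 161409_f_at) and Cd1d1 (-0.89).  The median was -0.58 without saline 6 and -0.67 without saline 48. The one gene with a higher mean, Rag1, a recombinase of antigen receptor genes, differed by 0.28 by 161740_r_at and by -2.08 by 93683_at. The 8 such markers on the array summed to 10838 and 15506 on saline 6 and 48 and to 4507, 9031 and 4551 on the IL-13 arrays. None of these leukocyte or thymocyte markers was under the floor on all arrays or passed the limma test after adjustment. At an unadjusted p under 0.05, 14 of the 30 leukocyte genes and 2 of the 6 thymocyte markers were lower and none was higher. Their part in the lower values of the 5 genes was not tested.

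B cell markers had a lower mean in 8 of 8, yet none was below both saline arrays throughout. The 11 on the array summed to 12190 on saline 6 and 1865 on saline 48, and to 4392, 1908 and 4472 on the IL-13 arrays. Macrophage and dendritic cell markers were nearer to even, with 7 of 11 lower, 3 below both saline arrays and a median of -0.23, or -0.15 without IL-13 6. Of 7 natural killer cell markers on the array none reached the level for testing. Neutrophil markers were lower in 2 of 5, endothelial markers in 7 of 11, heart and skeletal muscle markers in 7 of 12, and salivary gland markers in 3 of 3. Mast cell and eosinophil markers were higher in 3 of 3 tested, with Epx, Fcer1a, Mcpt4 and Prg2 under the floor on all arrays. Lung epithelium markers had a higher mean in 7 of 7, with a median of 0.62. It was 0.0062 without the IL-13 18 array and -0.0046 without saline 48.

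**Figure D3:**
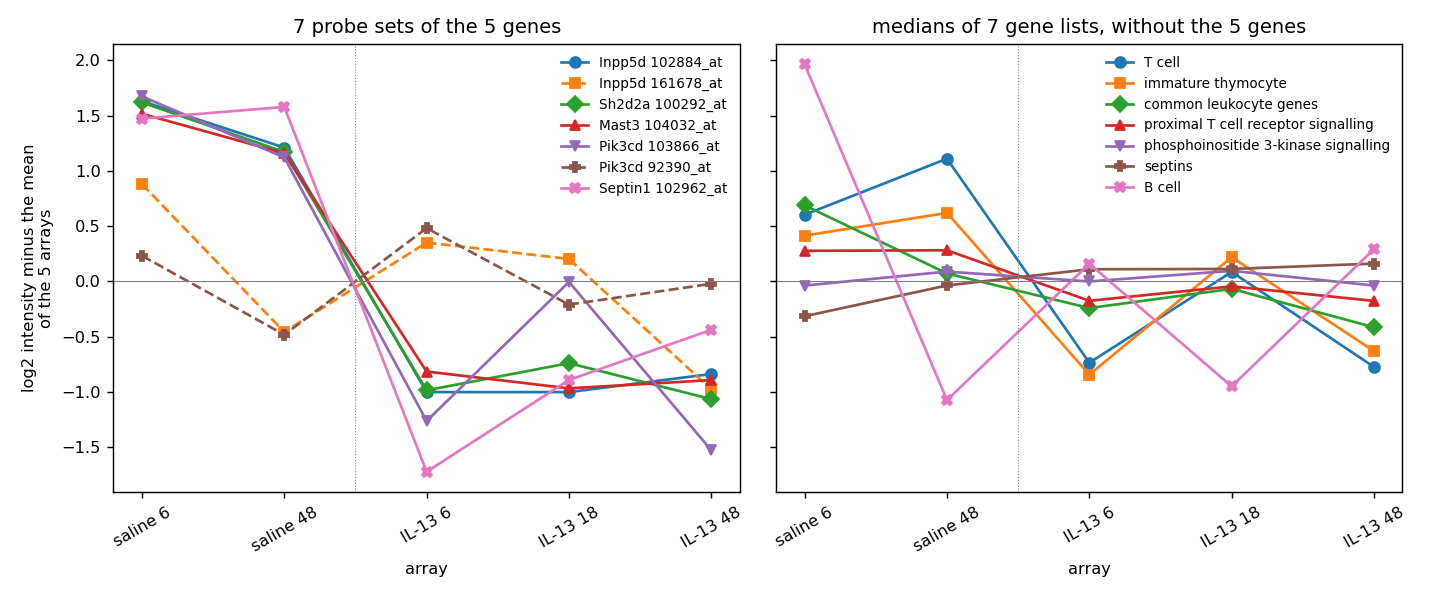
The left panel plots the log2 intensity of each of the 7 probe sets minus its mean over the 5 arrays, and the right panel the median of the same quantity over the tested genes of 7 lists without the 5 genes. The 5 lower probe sets drop between the saline and the IL-13 arrays, and the T cell median is higher on IL-13 18, at 0.09, than on IL-13 6 and 48, at -0.74 and -0.77.

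The rest of the phosphoinositide 3-kinase pathway did not share the size of the Pik3cd and Inpp5d differences. Of 25 tested genes of that list other than the members, 13 had a lower and 12 a higher mean, and 3 lay below and 2 above both saline arrays. Across all genes 14.1% lay above both. The median was -0.01, and from -0.02 to 0.05 with 1 array left out. No gene passed the limma test after adjustment, and at an unadjusted p under 0.05 none was lower and 2 were higher. The 4 largest differences were Pip5k1b, a kinase that makes PIP2, at 0.60, Pdpk1, the kinase that activates Akt, at 0.56 (its other probe set, 102063_at, at -0.07), Dok2, an adapter of blood cells, at -0.53, and Pik3ca at 0.49.

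Pik3ca encodes p110 alpha, the widely expressed relative of the Pik3cd product. Its 104461_at intensities were 340 and 672 on saline 6 and 48 and 756, 626 and 640 on IL-13 6, 18 and 48, so saline 6 was the lowest of the 5. Its other probe set, 92452_at, differed by -0.10. Pik3r1, the regulatory subunit p85 alpha that binds p110 delta, differed by -0.11 (SE 0.28). Inppl1, which encodes SHIP-2, the widely expressed relative of SHIP-1, read 2411 and 2723 on saline and 2786, 2314 and 2848 on IL-13 6, 18 and 48, a difference of 0.04 (SE 0.18). The groups overlapped for Inppl1. Inpp4a, which removes the 4-phosphate of phosphoinositides, differed by -0.05 (SE 0.22).

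Proximal T cell receptor signalling, the pathway of the Sh2d2a adapter, had lower means in 20 of 27 tested genes and higher means in 7. Below both saline arrays lay 13 of 27, above both lay none, and the median was -0.34. No gene of the list passed the limma test after adjustment, and 8 were lower at an unadjusted p under 0.05. When the 5 genes shared with the T cell or common leukocyte lists were left out, 15 of 22 were lower, 8 lay below both saline arrays and the median was -0.25. Kdr, which is also in the endothelial list, is among both the 27 and the 22. It differed by -0.34 and is itself the gene at the median of the 27. The largest differences were Sh2d1a, the SAP adapter of SLAM receptors, at -1.62, Lcp2 at -1.31, Cd247 at -1.30 and Ptpn22 at -1.21. Sh2d1a read 230 and 288 on saline 6 and 48, and 36.3, 192 and 16.3 on IL-13 6, 18 and 48. Its IL-13 6 and IL-13 48 values were under the floor, so its difference is floor-limited.

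Lcp2, the adapter SLP-76 that links the receptor's kinases to phospholipase C, read 533 and 494 on saline 6 and 48 and 227, 224 and 175 on IL-13 6, 18 and 48. Its groups were separate, with a difference of -1.31 (SE 0.19) and a limma adjusted p of 0.183. Cd247, the zeta chain that carries the receptor's signalling motifs, read 251 and 321 on saline and 90.1, 131 and 129 on IL-13. The other Cd247 probe set was below the level for testing and went the other way. It read 61.8 and 76.8 on saline 6 and 48, and 107, 135 and 80.9 on IL-13 6, 18 and 48. Every IL-13 value of that probe set lay above both saline values. Zap70, the kinase that binds the zeta chain, differed by -0.81 by 93662_s_at and by -1.57 by 93661_at. Lat, the membrane scaffold phosphorylated by Zap70, stood on the other side, at 0.31 (SE 0.27).

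No other septin tested had a difference near that of Septin1. Of 6 tested, Septin2, Septin4, Septin7, Septin10 and Septin11 had a higher and Septin9 a lower mean, and 3 of the 6 lay above both saline arrays, with a median of 0.36. Septin2 read 1673 and 2468 on saline 6 and 48 and 2719, 2942 and 3108 on IL-13, a difference of 0.52 (SE 0.22). Septin7, a core subunit of septin filaments, differed by 0.41 (SE 0.16), Septin10 by 0.39, Septin11 by 0.33 and Septin9 by -0.06. Septin4 differed by 0.10, but it read 860 on IL-13 18 against 319 and 283 on IL-13 6 and 48, both below its saline values of 391 and 405. None passed the limma test after adjustment, and 2 were higher at an unadjusted p under 0.05. Without saline 6 the median of the list was 0.15. A seventh, Septin6, did not reach the level for testing.

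The list of MAST and related kinases also holds Arpp19, which is not a kinase. Of 7 tested genes of that list other than Mast3, 4 had a lower and 3, Arpp19 among them, a higher mean. Below both saline arrays lay 3, and the median was -0.21. That median was -0.03 without saline 6 and -0.06 without IL-13 6. None passed the limma test after adjustment, and 1 was lower at an unadjusted p under 0.05. Mast2, the nearest relative of Mast3 on the array, read 987 and 856 on saline 6 and 48 and 674, 588 and 707 on IL-13 6, 18 and 48. Its groups did not overlap, but its difference of -0.49 (SE 0.18) was far smaller than that of Mast3. Prkacb and Prkaca, catalytic subunits of protein kinase A, differed by -0.34 and -0.25, and Sgk1 by -0.21.

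**Figure D4:**
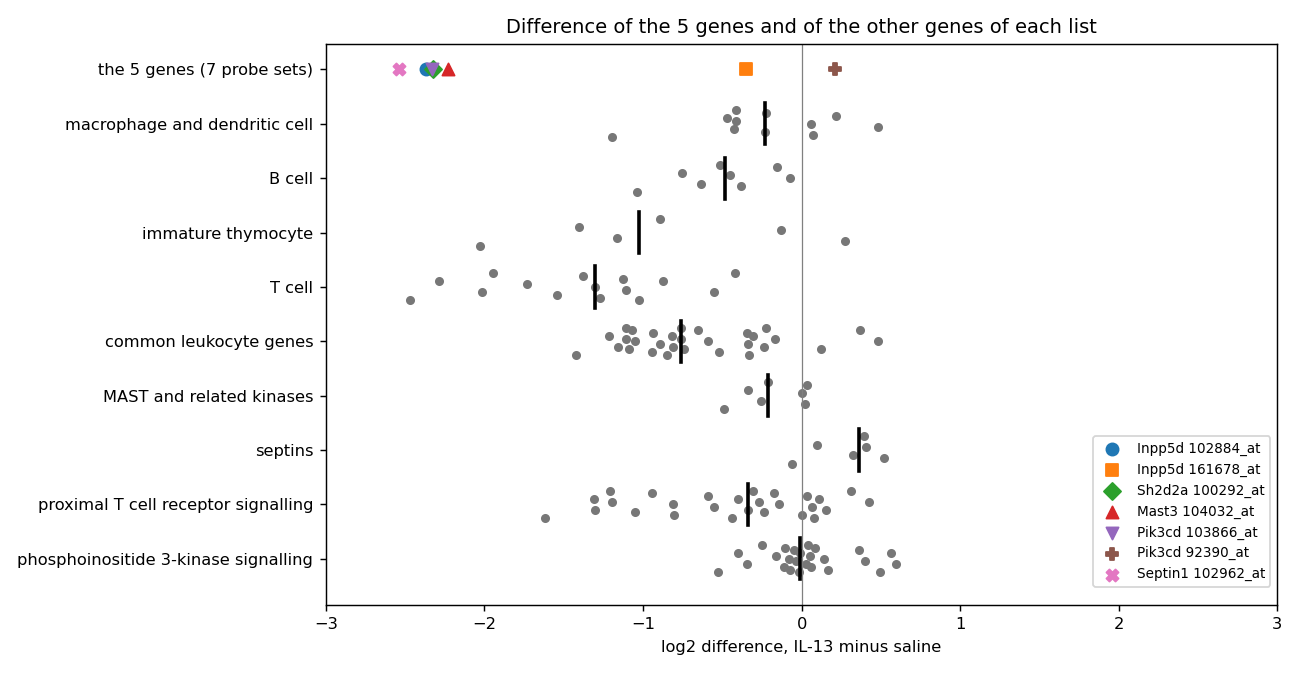
Each row plots log2 differences of IL-13 minus saline, with the 7 probe sets of the 5 genes in the top row and the other tested genes of each list as points below it, with the list medians marked. The medians are 0.36 for the septins, -0.01 for phosphoinositide signalling and -1.30 for the T cell markers.

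Genes with the most similar pattern over the 5 arrays were found by the root mean square difference of centred log2 values from the mean profile of the 5 genes, each gene standing by its brightest probe set. The nearest 10 were Six5 (0.159), Cd3g (0.209), Cd96 (0.253), Il7r (0.302), Cd3d (0.312), Kcnk3 (0.325), Rhoh (0.340), Nsg2 (0.364), Lcp2 (0.368) and Ltb (0.372). By that rule Inpp5d enters through 161678_at. With the 5 lower probe sets in its place, or with the mean absolute difference, 9 of the 10 were kept each time. The pattern spans only 5 arrays and is dominated by the difference the genes were chosen for, so it is a description of likeness.

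Six5, a homeobox gene, read 356 and 264 on saline 6 and 48 and 76.8, 116 and 58.5 on IL-13 6, 18 and 48. Cd96, a surface receptor of T and natural killer cells, read 260 and 290 on saline and 37.6, 97.6 and 63.8 on IL-13, the first of these under the floor. Il7r, the interleukin-7 receptor chain, read 460 and 336 on saline and 149, 163 and 142 on IL-13. All 3 had separate groups, with limma adjusted p-values of 0.188, 0.183 and 0.183, so none passed.

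Taken one at a time, the nearest genes were Cd96 and Ltb for Inpp5d 102884_at, Six5 and Cd3g for Sh2d2a, Ltb and Six5 for Mast3, Cd3g and Six5 for Pik3cd 103866_at, and Cd96 and Cd3d for Septin1. The other 2 probe sets had other neighbours. Inpp5d 161678_at lay nearest to Ikzf1, a lymphoid transcription factor (0.170), and Ptger4, a prostaglandin E receptor (0.178), and Pik3cd 92390_at nearest to Fdft1, the squalene synthase (0.0718), and Slc22a12 (0.0818). Flat profiles are close to many genes, so the smaller distances of Pik3cd 92390_at do not mark a closer likeness.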

How the data were processed

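The values are intensities on a linear scale in 1 table of 12488 probe sets that the authors deposited for the 5 arrays. How the array software read and scaled them is not given in the sources used here. Control probe sets (66) were left out. Of the rest, 10833 have exactly 1 gene symbol in the platform annotation, 396 several and 1193 none, and symbols were updated through the RefSeq gene table. Each array was divided to reach 1 shared 2% trimmed mean, values under the floor (55.3) were raised to it, and log2 values were used. Groups were compared with limma 3.58.1 (lmFit, eBayes; R 4.3.3), treatment the only term, two-sided (residual degrees of freedom 3, prior 3.46). SE is limma's moderated standard error. The number of arrays limits the precision. A fold against a value under the floor is a bound ("at least"). In lists, a gene stands by its probe set with the highest mean log2 value.

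The genes and the lists were chosen with earlier results of these data known. Named were all probe sets of the 5 genes, the 4 largest differences of each pathway list and of the T cell, leukocyte and thymocyte lists with the family relatives, and the nearest profiles; for the other cell type lists counts are given. The labels do not say that shared title numbers pair the arrays. Over tested probe sets, saline 48 minus saline 6 correlated with IL-13 48 minus IL-13 6 at 0.13. The code was tested on simulated data. Promoters were searched, and figures drawn, with Python 3.11.15 and matplotlib 3.10.9. Other scalings, floors, filters, limma settings, the block and leaving out each array were tried.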

Additional observations from a re-analysis of the deposited data

Results flagged for a closer look

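IL-13 and saline arrays of title numbers 6 and 48 were set side by side for 72 genes and lists, and in 11 the IL-13 minus saline difference had opposite signs at the 2 numbers. No probe set of the 5 genes was among them. With 1 array against 1 the difference was not tested in any of the 11. As the value at number 48 minus that at number 6 on the log2 scale, it was 0.80 for Lat, 1.11 for Prkaca, -1.22 for Pik3ca, -0.23 for Pik3r1, -0.64 for Rag1 161740_r_at and 3.98 for Sftpc. Pik3ca, the relative of Pik3cd, was higher by 1.15 at number 6 and differed by -0.07 at number 48. For list medians it was -0.10 for phosphoinositide 3-kinase signalling, 2.94 for B cell markers, 0.21 for lung epithelium, 6.17 for salivary gland and 0.81 for heart and skeletal muscle. The salivary gland, B cell, and heart and skeletal muscle lists were all highest on saline 6.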

How the results depend on the processing

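All 5 lower probe sets kept their sign in every setting run. This is no support, because in each of them all 3 IL-13 arrays lay below both saline arrays. Leaving out an array, or changing the floor, the filter or the limma settings, could not reverse the sign. Inpp5d 161678_at ran from -1.02 to 0.32 and Pik3cd 92390_at from -0.15 to 0.57 when 1 array was left out. Lower calls fell from 3 to 0 and higher calls from 1 to 0 with floors at the 10th or 40th percentile, no filter, trend and robust settings, the title number as replicate block, or the same 4 arrays without it (chosen after seeing the data). With a filter at the 60th percentile they were 1, Sh2d2a, and 0, but 1 of the 7 probe sets was then tested and the other 6 were left out; with quantile normalization higher calls were 0. Leaving out 1 array at a time, lower calls ran from 0 to 10, higher calls from 0 to 3, and the median difference of the 7 probe sets from -2.49 to -2.05. The 10 lower and 3 higher calls came without saline 48. That median was -0.90 with the floor at the 40th percentile, by the floor's own construction. Probe sets lower at both title numbers counted 71 at 2-fold, 159 at 1.5-fold and 21 at 3-fold. The B cell median ran from -2.19 to 0.89 with 1 array left out. The causes of lost calls were not tested. With 1 array per treatment and number, the block leaves few degrees of freedom. The lowest limma adjusted p was 0.110 with the block and 0.108 for the same 4 arrays without it. Low IL-13 intensities limit how large a fold can be measured.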
